A study of Mus musculus with 6 samples.

Results

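The collagen gene family was examined in mouse embryonic fibroblasts, connective tissue cells grown from embryos, at an early stage of reprogramming towards pluripotency. Members were all genes whose single symbol in the array annotation reads Col, a number, the letter a and a number, which gave 44 of the 19938 genes measured. The cells carried 2, 1 or no intact copies of Foxd1, a forkhead transcription factor, and are named Foxd1+/+, Foxd1+/- and Foxd1-/-. Cells of every genotype were infected on day 0 with retroviruses for Oct4, Sox2 and Klf4 and sampled on day 8, so uninfected cells and other days are not described here. Each genotype was measured on 2 arrays labelled biological replicates 1 and 2. Whether replicates are separate embryos or cultures, and what the number marks, is not in the labels. The p-values therefore measure the spread between these 6 arrays. What part of that spread is technical was not tested. Sex-linked genes, given below, differed between the 2 arrays of Foxd1+/+ and between those of Foxd1+/-.

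Collagens are secreted proteins whose chains wind into a triple helix. Fibrillar collagens assemble into the fibres that give tissue its strength, network collagens such as type IV form the sheets of basement membranes, and other classes coat fibrils, form beaded filaments, line cartilage or span the cell membrane. Type I and type III chains are the main products of embryonic fibroblasts, and silencing of mesenchymal genes, collagens among them, is a known early step of reprogramming. Chains that share a trimer are encoded by separate genes, and the type IV genes lie in head-to-head pairs. The 44 genes were grouped by structure or by tissue location, and the cartilage class holds fibrillar chains together with others. This gave 8 fibrillar genes outside cartilage, 7 cartilage genes, 9 genes of the basement membrane and the zone beneath it, and 8 beaded filament genes. The rest were 6 FACIT genes (fibril-associated collagens with interrupted triple helices), 4 transmembrane genes and 2 hexagonal network genes.

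Intensities are arbitrary units per probe set and are compared here only between arrays, never between genes. The median over all 28856 probe sets, with or without a gene symbol, lay between 76.5 and 79.6 on the 6 arrays. The lowest value was 19.5. The mean of 15 collagen genes lay under the median over the 19938 genes, which is not the median over probe sets given above. The values have no detection call. Foxd1 read 1907 and 1169 for Foxd1+/+, 1014 and 2074 for Foxd1+/- and 189 and 213 for Foxd1-/-. It was low on both arrays labelled Foxd1-/-. Between the arrays labelled Foxd1+/+ and Foxd1+/-, the former read higher in replicate 1 and the latter in replicate 2, with means of 1538 and 1544. Foxd1 thus gave no check of the labels of these 2 genotypes. Every direction given for Foxd1+/- against Foxd1+/+ is therefore that of the arrays as labelled. No source used here says whether the Foxd1 probe set lies in the deleted part. Xist, the RNA of the inactive X chromosome, read 514 and 35.2 for Foxd1+/+, 33.7 and 692 for Foxd1+/- and 623 and 848 for Foxd1-/-. The Y-linked Uty read 24.1 and 274 for Foxd1+/+, 244 and 24.8 for Foxd1+/- and 25.9 and 23.6 for Foxd1-/-. Foxd1+/+ replicate 2 and Foxd1+/- replicate 1, with low Xist and high Uty, thus stood apart from the other 4 arrays. Both Foxd1-/- arrays had high Xist and low Uty, while Foxd1+/+ and Foxd1+/- each held both kinds. The part of this difference between arrays in the collagen values was not tested.

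In the arrays labelled Foxd1-/-, 33 of the 44 collagen genes were higher than the mean of the 4 arrays that carried Foxd1, against 49.6% of all genes. No collagen gene passed the test (limma, Benjamini-Hochberg adjusted p under 0.05; 0.0% of all genes were called). At an unadjusted p under 0.05 the fit without the replicate number called 1 collagen gene, Col1a2. That is 2.27% of the family, against 3.94% of all genes. With the replicate number as a block the fit called 11 collagen genes, 25.0% of them, against 11.7% of all genes. All 11 were higher in Foxd1-/- (6.52% of all genes were called higher). The smallest adjusted p among collagen genes in that fit was 0.12 for Col3a1, so that no member passed either way. The median log2 difference was 0.04 over the collagen genes and -0.0006 over all genes. Without Foxd1-/- replicate 2 the number of higher genes fell from 33 to 20 and the median to -0.0065, a fit that sets Foxd1-/- replicate 1 against carrying arrays of both numbers. Against the mean of the carrying arrays of the same number, Foxd1-/- was higher for 32 of the 44 genes in replicate 1 (52.6% of all genes) and for 28 in replicate 2 (47.6%).

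Collagen genes were called between the 2 replicate numbers. In replicate 2 against replicate 1, fitted with a mean for each genotype, 12 collagen genes passed (limma, Benjamini-Hochberg adjusted p under 0.05), 27.3% of the family, where 8.84% of all genes passed. All 12 were higher in replicate 2, a direction in which 4.84% of all genes were called. They were the fibrillar genes Col1a1, Col3a1, Col5a1 and Col5a2, the 3 classical type VI chains Col6a1, Col6a2 and Col6a3, the FACIT genes Col14a1 and Col16a1, and Col8a1, Col11a1 and Col15a1. Replicate 2 lay above replicate 1 in all 3 genotypes for 25 collagen genes (22.6% of all genes), and below it in all 3 for 2, Col28a1 and Col6a5 (22.8% of all genes). With single arrays left out, 7 collagen genes were called without either Foxd1+/+ array (6.03% of all genes), 9 without either Foxd1+/- array (6.96%) and 0 without either Foxd1-/- array. That last fit called 0.0% of all genes, so the calls were lost across the whole table, and at an unadjusted p under 0.05 limma gave 19 collagen genes there, where 3191 of 19938 genes in all passed. Each such fit loses a whole genotype from the comparison, since the array left alone is then described by its own mean.

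**Figure D1:**
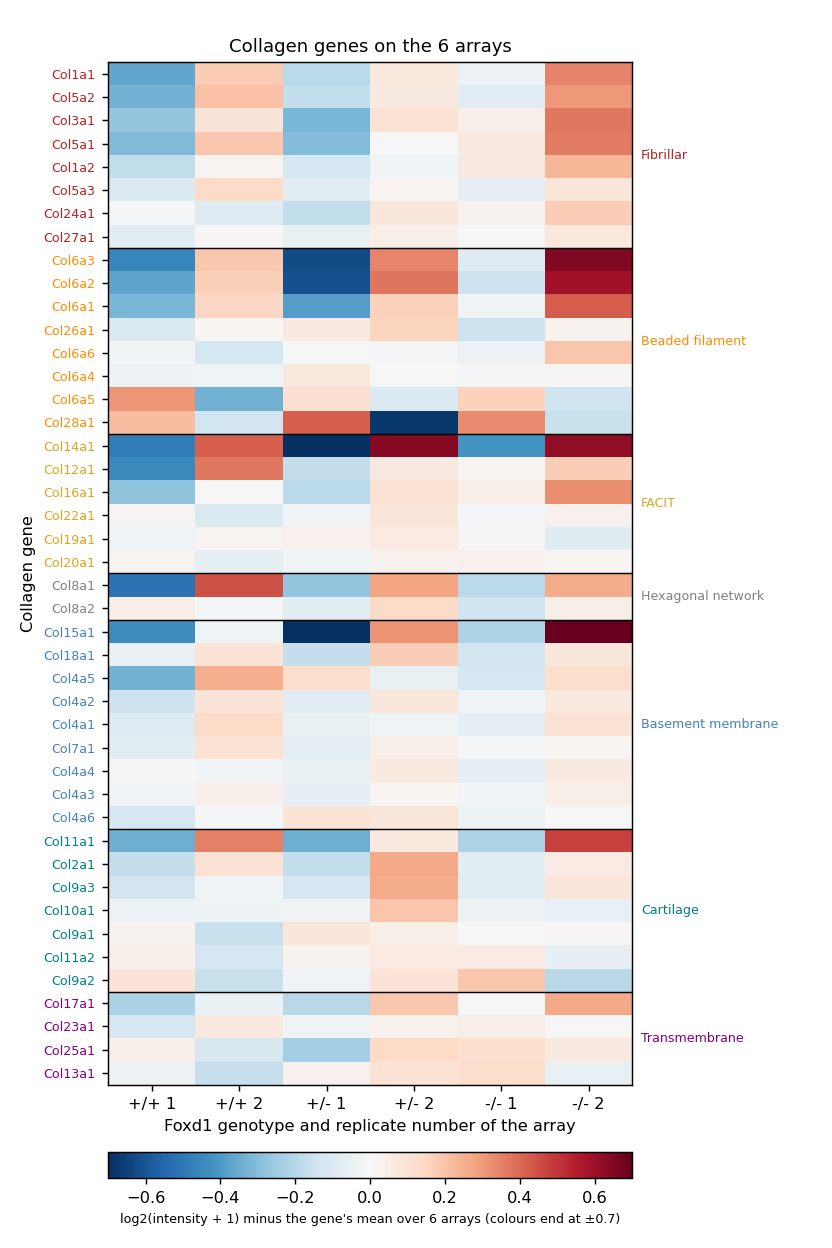
Each row is a collagen gene, grouped by class, and each column an array named by Foxd1 genotype and replicate number; the colour gives log2(intensity + 1) minus the mean of that gene over the 6 arrays, ending at 0.7 either way. Most fibrillar rows and the rows of Col6a1, Col6a2 and Col6a3 are blue on Foxd1+/+ 1 and Foxd1+/- 1 and darkest red on Foxd1-/- 2, while most cartilage, transmembrane and type IV rows stay pale.

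The highest value of a collagen gene lay on Foxd1-/- replicate 2 for 16 genes and on Foxd1+/- replicate 2 for 12. The lowest lay on Foxd1+/+ replicate 1 for 18 and on Foxd1+/- replicate 1 for 12. Over all genes these shares were 20.8%, 20.0%, 16.7% and 16.2%. The residual standard deviation of log2 values within genotypes had a median of 0.15 for collagen genes and 0.09 for all genes. By these medians collagen genes varied more between the arrays of a genotype. The 2 sets were not matched for intensity, and the scale shrinks the differences of dim genes, so the part of level in this was not tested. The widest ranges over the 6 arrays were those of Col15a1 (1.88 on the log2 scale), Col14a1 (1.40) and Col6a3 (1.27). The narrowest were those of Col20a1 (0.09), Col4a3 (0.10) and Col6a4 (0.11), whose intensities never passed 79.5. In RNA from whole cultures, fewer cells of a type and less RNA per cell cannot be told apart.

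The fibrillar genes outside cartilage had a class median of 0.20 on the log2 scale in Foxd1-/-, and all 8 were higher there than in the carrying arrays. That median came to 0.05 when Foxd1-/- replicate 2 was left out and to 0.34 when its replicate 1 was, fits that compare unlike replicate numbers. Within the numbers it was 0.20 in replicate 1 and 0.20 in replicate 2, again with all 8 genes higher. Differences are given on the log2 scale with the standard error of the fit. Col1a2 (probe set 10536220), the second chain of type I collagen, read 5345 and 6109 for Foxd1+/+, 5539.5 and 5956 for Foxd1+/- and 6306 and 7098 for Foxd1-/-. Both Foxd1-/- arrays lay above all 4 carrying arrays. That held for no other collagen gene, so for 2.27% of the family, below the 5.59% of all genes. Its log2 difference was 0.22 ± 0.08 (SE; 2 against 4 arrays; limma unadjusted p = 0.0305, Benjamini-Hochberg adjusted p = 0.999), a 1.17-fold higher value, and against the mean of the carrying arrays of the same number it amounted to 0.21 in replicate 1 and 0.23 in replicate 2. Between the replicate numbers it differed by 0.16 ± 0.05, which did not pass (limma adjusted p = 0.116).

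Col1a1, the main chain of the same trimer, read 4368 and 6356 for Foxd1+/+, 4918 and 5884 for Foxd1+/- and 5445 and 7143 for Foxd1-/-. Foxd1-/- replicate 1 lay below both carrying arrays of replicate 2, so the groups overlapped, although within each number the Foxd1-/- array was the highest. The log2 difference was 0.23 ± 0.18 in Foxd1-/- and 0.40 ± 0.07 in replicate 2, of which only the latter passed (limma adjusted p = 0.0355). Col3a1 (probe set 10346015), which forms the fine fibres laid down beside type I, read 4507 and 5785 for Foxd1+/+, 4359 and 5834 for Foxd1+/- and 5569 and 7021 for Foxd1-/-. It too was highest in Foxd1-/- within each number, exceeding the mean of the carrying arrays by 0.33 in replicate 1 and 0.27 in replicate 2. Its difference between replicates was 0.37 ± 0.05 (limma adjusted p = 0.0181). In the fit with the replicate block it had the smallest p of the family for Foxd1-/- against the carrying arrays, 4.36e-04 before adjustment.

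The type V chains Col5a1 and Col5a2, which start fibrils and limit their width, were also highest in Foxd1-/- within both replicate numbers, while the third, Col5a3, was not. Col5a1 read 609 and 861 for Foxd1+/+, 612 and 758 for Foxd1+/- and 791 and 973 for Foxd1-/-. Col5a2 read 915 and 1324 for Foxd1+/+, 1021 and 1199.8 for Foxd1+/- and 1094 and 1422 for Foxd1-/-. Foxd1-/- replicate 2 was highest and Foxd1+/+ replicate 1 lowest for both. The log2 differences of Foxd1-/- from the carrying arrays were 0.32 ± 0.17 and 0.18 ± 0.18, and that of Col5a2 turned to -0.01 without Foxd1-/- replicate 2; within the numbers Col5a2 exceeded the mean of the carrying arrays by 0.18 in replicate 1 and 0.17 in replicate 2. Of the other 3 fibrillar genes, Col24a1 differed by 0.15 ± 0.09, with values of 70.2 to 89.6, while Col5a3 (0.02 ± 0.08) and Col27a1 (0.06 ± 0.05) lay within 0.1 of the carrying arrays. None of the 3 passed in either comparison.

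**Figure D2:**
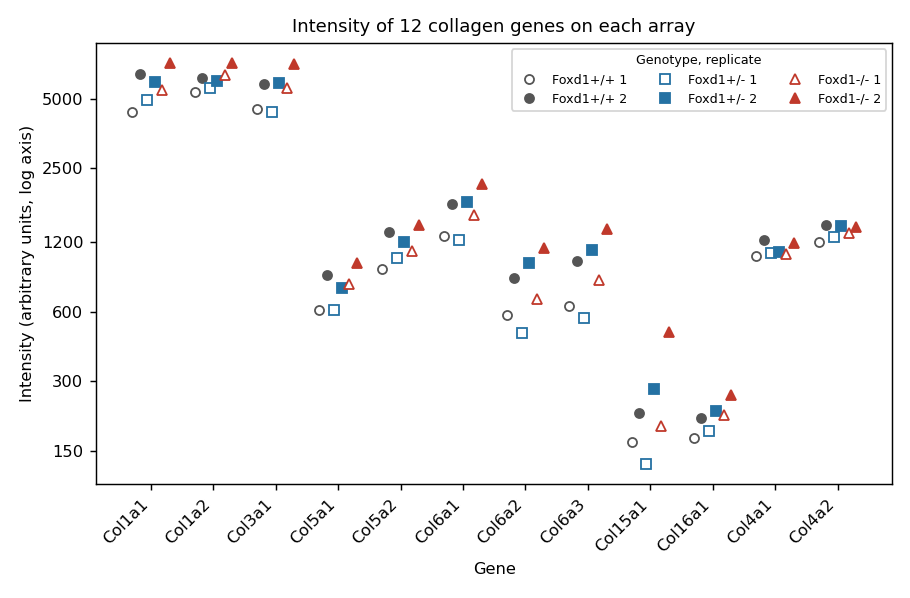
Intensity (arbitrary units, log axis) of 12 collagen genes on each of the 6 arrays; circles are Foxd1+/+, squares Foxd1+/- and triangles Foxd1-/-, open for replicate 1 and filled for replicate 2, and heights are not comparable between genes. For the fibrillar and type VI genes each triangle lies above the circle and square of the same fill, and filled symbols lie above open ones within a genotype; for Col4a1 and Col4a2 the symbols lie close together.

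The promoters of 2 fibrillar genes and of 2 type VI genes are given as the 250 bases before the RefSeq transcription start in build GRCm38.p6, written 5′ to 3′ on the strand of the gene. These 4 are a choice from the 15 collagen genes that were highest in Foxd1-/- within both replicate numbers, and the promoters of the others are not printed. Capitals mark matches, on either strand, to CCAAT (the CCAAT box), TATAAA (the TATA box), GGGCGG (the GC box), TGTTTA (the forkhead core) and TGACTCA (the AP-1 site).
Col1a2, chr6:4505368-4505617, plus strand: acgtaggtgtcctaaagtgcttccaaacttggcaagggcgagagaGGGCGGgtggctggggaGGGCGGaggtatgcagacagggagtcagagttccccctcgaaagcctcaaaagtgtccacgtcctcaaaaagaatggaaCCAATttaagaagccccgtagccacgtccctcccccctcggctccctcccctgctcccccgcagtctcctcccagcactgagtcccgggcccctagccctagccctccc
Col3a1, chr1:45311288-45311537, plus strand: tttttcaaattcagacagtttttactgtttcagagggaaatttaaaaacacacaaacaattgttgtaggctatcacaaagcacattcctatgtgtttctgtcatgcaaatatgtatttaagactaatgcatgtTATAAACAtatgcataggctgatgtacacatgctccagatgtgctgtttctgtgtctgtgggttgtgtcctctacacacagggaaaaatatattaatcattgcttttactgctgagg
Col6a1, chr10:76726045-76726294, minus strand: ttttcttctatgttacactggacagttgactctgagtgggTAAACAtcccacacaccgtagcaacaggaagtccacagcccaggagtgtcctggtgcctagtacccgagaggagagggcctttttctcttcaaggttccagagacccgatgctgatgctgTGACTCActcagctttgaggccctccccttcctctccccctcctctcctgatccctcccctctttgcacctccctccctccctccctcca
Col6a2, chr10:76623631-76623880, minus strand: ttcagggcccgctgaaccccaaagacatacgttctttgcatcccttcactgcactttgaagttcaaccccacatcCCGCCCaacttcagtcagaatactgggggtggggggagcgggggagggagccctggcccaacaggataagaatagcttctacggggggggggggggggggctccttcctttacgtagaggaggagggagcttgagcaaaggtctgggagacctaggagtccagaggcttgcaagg
The Col1a2 window held 2 GC boxes and 1 CCAAT box, which began 109 bases before the start. The Col3a1 window held 1 TATA box and 1 forkhead core that overlap in the letters TAAA, the Col6a1 window 1 forkhead core and 1 AP-1 site, and the Col6a2 window 1 GC box. The promoter table held 35 of the 44 genes, with 38 windows. Of these windows 57.9% held a GC box (32.7% of all 32851 windows), 34.2% a CCAAT box (33.9%), 15.8% a forkhead core (12.03%), 13.2% a TATA box (12.4%) and 2.63% an AP-1 site (4.46%). The forkhead core was found for 6 of the 35 genes, Col3a1, Col6a1, Col24a1, Col6a4, Col11a2 and Col13a1, so the 4 printed windows do not give its share. A match describes letters in the window and no binding was measured.

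Among the beaded filament genes, the 3 chains of the classical type VI trimer, which links cells to the surrounding fibres, showed a common order of arrays. Col6a1 read 1276 and 1759.8 for Foxd1+/+, 1219.6 and 1780.1 for Foxd1+/- and 1570.2 and 2136 for Foxd1-/-. Col6a2 read 579 and 842 for Foxd1+/+, 488 and 971 for Foxd1+/- and 678 and 1127 for Foxd1-/-. Col6a3 (probe set 10356520) read 634 and 992 for Foxd1+/+, 564 and 1106 for Foxd1+/- and 819 and 1365 for Foxd1-/-. All 3 were lowest on Foxd1+/- replicate 1 and highest on Foxd1-/- replicate 2. For all 3 every replicate 2 array lay above every replicate 1 array, which held for 20 of the 44 collagen genes and 15.2% of all genes. Replicate 2 was higher by 0.48 ± 0.05, 0.75 ± 0.09 and 0.78 ± 0.08 on the log2 scale (SE), and all 3 passed (limma adjusted p = 0.0111, 0.0189 and 0.0108). Within each number the Foxd1-/- array exceeded the mean of the carrying arrays, for Col6a3 by 0.45 in replicate 1 and 0.38 in replicate 2. The differences over both numbers were 0.30 ± 0.22, 0.33 ± 0.34 and 0.42 ± 0.35; none passed, and that of Col6a2 turned to -0.03 without Foxd1-/- replicate 2, while within the numbers it was 0.35 in replicate 1 and 0.32 in replicate 2.

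The other 5 genes of the class did not show that order. Col28a1, a short filament collagen of nerve and skin, read 337 and 264 for Foxd1+/+, 388 and 181 for Foxd1+/- and 365 and 259 for Foxd1-/-, and Col6a5 read 100.5 and 63.8 for Foxd1+/+, 86.9 and 75.2 for Foxd1+/- and 90.6 and 73.3 for Foxd1-/-. Both were lower in replicate 2 within every genotype, by -0.65 ± 0.15 and -0.39 ± 0.10, without passing (limma adjusted p = 0.0726 and 0.0809). A second, dimmer Col6a5 probe set read 68.3 and 55.2 for Foxd1+/+, 79.1 and 45.8 for Foxd1+/- and 59.0 and 40.5 for Foxd1-/-. It was also lower in replicate 2 within every genotype, and unlike the first it was lowest in Foxd1-/- within each number. Col6a4 read 73.7 and 73.9 for Foxd1+/+, 79.5 and 75.3 for Foxd1+/- and 74.7 and 76.1 for Foxd1-/-, among the flattest profiles of the family. Col6a6 lay between 121 to 150.4 and Col26a1 between 99.1 to 122. The class median in Foxd1-/- was 0.12, with 6 of 8 genes higher.

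FACIT collagens sit on the surface of fibrils. Col14a1 (probe set 10424140), which binds fibrils and regulates their growth, read 129 and 243 for Foxd1+/+, 106 and 282 for Foxd1+/- and 135 and 279 for Foxd1-/-. It had the smallest p between replicate numbers of the whole family, 1.12 ± 0.10 on the log2 scale (limma adjusted p = 0.0101), a 2.17-fold higher value in replicate 2. Its genotype difference was small beside that, at 0.15 ± 0.50. Col16a1 read 172 and 209.6 for Foxd1+/+, 184 and 225 for Foxd1+/- and 215 and 262 for Foxd1-/-. Here the Foxd1-/- array was highest within each number, exceeding the mean of the carrying arrays by 0.27 in replicate 1 and 0.27 in replicate 2. Both arrays of Foxd1-/- lay above both of Foxd1+/+, as they did for 6 of the 44 collagen genes, 13.6%, and for 13.6% of all genes. Col12a1, the tendon and ligament FACIT, split by number: the log2 difference of Foxd1-/- from the carrying arrays was 0.33 in replicate 1 and -0.05 in replicate 2. The other 3 were dim: Col19a1 lay at 49.3 to 54.4, Col20a1 at 63.8 to 68.1 and Col22a1 at 76.1 to 86.6.

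The basement membrane genes showed a class median of 0.003 in Foxd1-/-, against 0.20 for the fibrillar genes. Col4a1 and Col4a2, which encode the chains of the common type IV network, read 1046 and 1219.6 for Foxd1+/+, 1075 and 1088 for Foxd1+/- and 1064 and 1191 for Foxd1-/-, and 1201 and 1416 for Foxd1+/+, 1260.4 and 1405 for Foxd1+/- and 1308 and 1394 for Foxd1-/-. Their differences in Foxd1-/- were 0.03 ± 0.08 and 0.04 ± 0.08, and in replicate 2 0.13 ± 0.06 and 0.16 ± 0.05; none passed. The kidney glomerulus chains Col4a3 (57.7 to 61.9) and Col4a4 (59.2 to 64.5) and the X-linked Col4a6 (49.5 to 57.7) stayed dim on every array. Col4a5, the X-linked partner of Col4a6, read 159.8 and 241 for Foxd1+/+, 219 and 195 for Foxd1+/- and 185 and 219.8 for Foxd1-/-, with no common order of genotypes in the 2 numbers. Its highest and lowest values were both on Foxd1+/+ arrays. Col7a1, the anchoring fibril collagen of skin, lay at 138 to 156, and Col18a1, the source of endostatin, at 219 to 278. Of 5 other genes expressed by basement membrane producers, the laminin chain Lama1 was lower in replicate 2 (-1.44 ± 0.07, limma adjusted p = 0.00511) and the other 4 did not pass. Over all genes 8.84% passed.

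Col15a1 (probe set 10504775), a collagen of the zone between basement membrane and fibrils, had the widest range of the family. It read 164 and 219 for Foxd1+/+, 132 and 278 for Foxd1+/- and 192 and 489 for Foxd1-/-. Foxd1-/- replicate 2 stood well above all other arrays, and Foxd1-/- replicate 1 lay below both carrying arrays of replicate 2. The log2 difference was 0.68 ± 0.45, made up of 0.38 in replicate 1 and 0.98 in replicate 2, and it ranged from 0.01 without Foxd1-/- replicate 2 to 1.35 without Foxd1-/- replicate 1. Replicate 2 was higher by 0.94 ± 0.18 (limma adjusted p = 0.0474). With Col15a1 left aside, the other 8 genes of the class differed in Foxd1-/- by between -0.04 and 0.04.

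**Figure D3:**
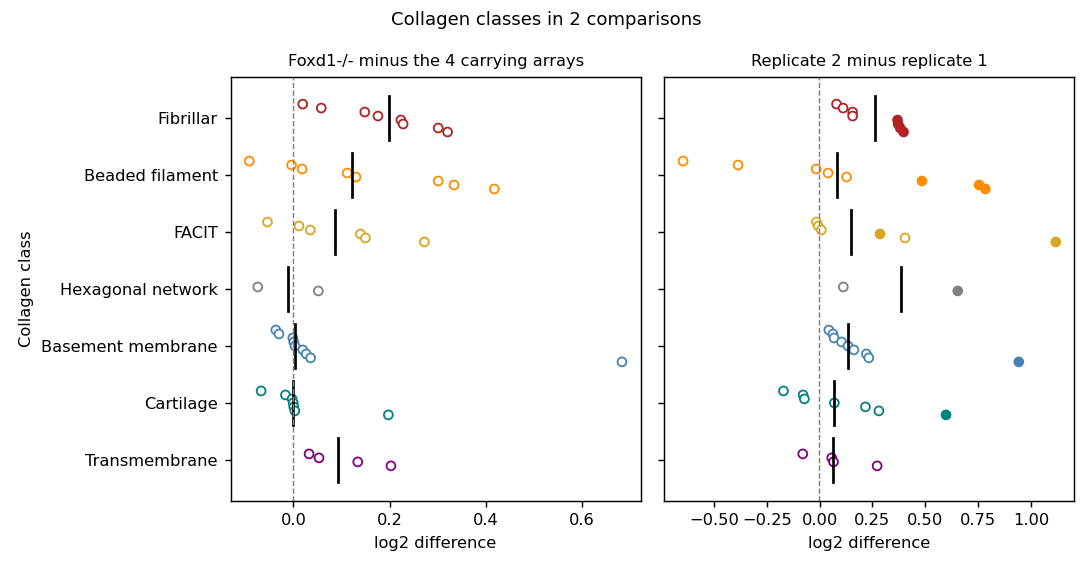
Each point is a collagen gene, placed by its log2 difference on the horizontal axis and its class on the vertical axis; filled points passed (limma adjusted p under 0.05), the black bar is the class median and the dashed line the median over all genes. On the left (Foxd1-/- minus the 4 carrying arrays) no point is filled and the fibrillar bar lies at 0.20; on the right (replicate 2 minus replicate 1) 12 points are filled, all to the right of 0.

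Cartilage collagens gave a median of -0.0004 in Foxd1-/-, with 3 of 7 genes higher. Col2a1, the main fibril of cartilage, read 257 and 309 for Foxd1+/+, 256 and 347 for Foxd1+/- and 273 and 301 for Foxd1-/-. Its partner Col11a1, which is also made outside cartilage, read 259 and 419.6 for Foxd1+/+, 259 and 344 for Foxd1+/- and 283 and 458 for Foxd1-/-. Of the 7, only Col11a1 passed between replicate numbers, at 0.60 ± 0.07 (limma adjusted p = 0.0182), and Col2a1 differed by 0.28 ± 0.07 (adjusted p = 0.0814). In Foxd1-/- they differed by 0.20 ± 0.27 and -0.02 ± 0.14. The third chain of that fibril, Col11a2, lay at 95.4 to 108. The type IX chains, which decorate it, lay at 70.3 to 83.2 for Col9a1, 96.0 to 126 for Col9a2 and 129 to 169 for Col9a3, and Col10a1, the collagen of hypertrophic cartilage, at 32.2 to 38.3. Of 7 other cartilage markers 1 passed between replicate numbers, Cnmd (1.02 ± 0.15, higher in replicate 2), where 8.84% of all genes passed. Acan, the large proteoglycan of cartilage, read 30.7 to 36.0 and Comp 47.2 to 50.9.

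Transmembrane collagens, which act as adhesion molecules, were higher in Foxd1-/- in all 4 genes, with a median of 0.09. Against carrying arrays of the same number all 4 were higher in replicate 1 and 2 of 4 in replicate 2. Col17a1, of the epidermal hemidesmosome, read 83.9 and 94.6 for Foxd1+/+, 85.5 and 112 for Foxd1+/- and 98.0 and 118 for Foxd1-/-. The Foxd1-/- array was highest within each number, and it exceeded the mean of the carrying arrays by 0.21 in replicate 1 and 0.20 in replicate 2, where it stood only 0.08 above Foxd1+/-. Col13a1 read 79.5 and 72.7 for Foxd1+/+, 83.1 and 87.0 for Foxd1+/- and 88.8 and 78.4 for Foxd1-/-. Col23a1 lay at 100.5 to 114 and Col25a1 at 69.9 to 91.0, and no gene of this class passed in any comparison. Of the hexagonal network pair, Col8a1, made by vessel wall and cornea, read 730.3 and 1425 for Foxd1+/+, 863 and 1263 for Foxd1+/- and 916 and 1249 for Foxd1-/-. It was higher in replicate 2 by 0.65 ± 0.11 (limma adjusted p = 0.0347) and in Foxd1-/- by 0.05 ± 0.30, with opposite signs in the 2 numbers. Its partner Col8a2 was dim, at 62.5 to 75.9.

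Within each replicate number the comparison does not involve the difference between numbers. The Foxd1-/- array exceeded both same-numbered carrying arrays in both numbers for 15 of the 44 collagen genes, 34.1%, where 16% of all genes did so. It lay below both in both numbers for 0 collagen genes and 14.2% of all genes. The 15 were Col1a1, Col1a2, Col3a1, Col5a1, Col5a2, Col24a1 and Col27a1 of the fibrillar class, Col6a1, Col6a2 and Col6a3, and Col4a3, Col11a1, Col15a1, Col16a1 and Col17a1. Thus 7 of 8 fibrillar genes outside cartilage and 1 of 7 cartilage genes were among them. That cartilage gene, Col11a1, is itself a fibrillar chain that was classed by tissue. The size of the difference was similar in the 2 numbers for Col1a2, Col1a1, Col3a1 and Col16a1 and unlike for Col15a1 and Col12a1.

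**Figure D4:**
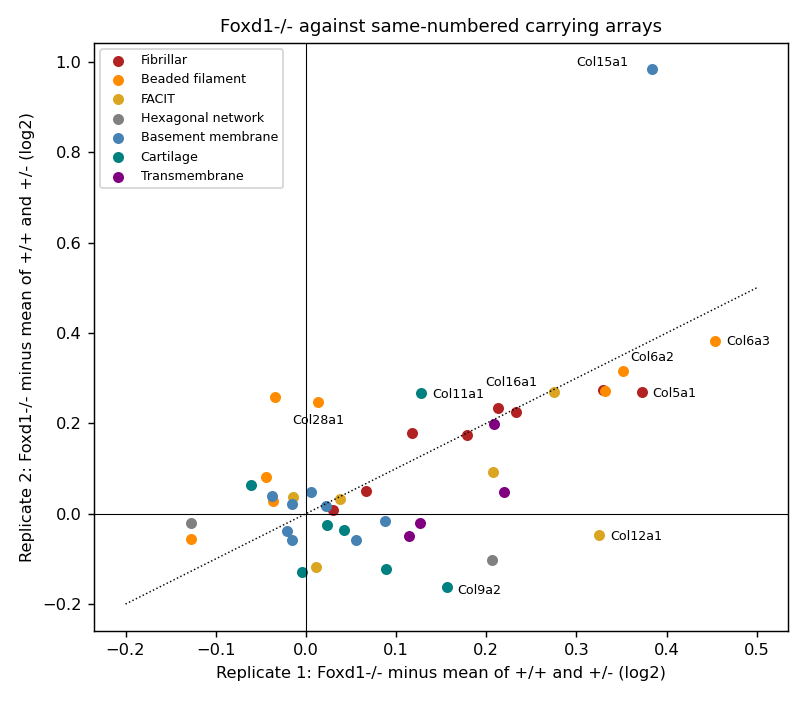
Each point is a collagen gene, coloured by class; the horizontal axis is the log2 difference between the Foxd1-/- array and the mean of the Foxd1+/+ and Foxd1+/- arrays in replicate 1, the vertical axis the same in replicate 2, and the dotted line marks equal values. Fibrillar genes lie along the dotted line above 0 on both axes, Col15a1 lies far above the line and Col12a1 below it.

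The pairs of genotypes share arrays, and their values are given side by side. Against Foxd1+/+, 36 collagen genes were higher in Foxd1-/- (51.7% of all genes), and against Foxd1+/-, 28 were (48.6%). Foxd1+/- was higher than Foxd1+/+, as labelled, in 29 (51.6%). None passed in any of the 3 pairs (limma, Benjamini-Hochberg; 0.0% of all genes called), and at an unadjusted p under 0.05 the counts were 0, 0 and 1 collagen genes against 2.11%, 2.31% and 0.973% of all genes. With the replicate block they were 10, 10 and 2 against 7.54%, 7.56% and 2.01%, still with none passing after adjustment. The numbers of higher genes moved with single arrays left out, which sets unlike replicate numbers against each other: they fell to 24 without Foxd1+/+ replicate 1 in the first pair, to 17 without Foxd1+/- replicate 1 in the second, and to 14 without Foxd1+/- replicate 2 in the last.

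Against Foxd1+/+, the 5 collagen genes with the smallest p in Foxd1-/- were Col1a2 (0.23 ± 0.10), Col16a1 (0.32 ± 0.17), Col17a1 (0.27 ± 0.17), Col6a6 (0.15 ± 0.10) and Col13a1 (0.13 ± 0.09). Col6a6 read 129.8 and 121 for Foxd1+/+, 132 and 131 for Foxd1+/- and 128 and 150.4 for Foxd1-/-, with the excess on Foxd1-/- replicate 2 alone. Against Foxd1+/- they were Col1a2 (0.22 ± 0.10), Col5a1 (0.37 ± 0.22) and, lower in Foxd1-/-, Col26a1 (-0.17 ± 0.09), Col4a6 (-0.11 ± 0.06) and Col10a1 (-0.13 ± 0.09). Col26a1 read 102 and 111 for Foxd1+/+, 115 and 122 for Foxd1+/- and 99.1 and 112 for Foxd1-/-. Its Foxd1+/- arrays were the 2 highest, and the Foxd1-/- arrays overlapped those of Foxd1+/+. Between Foxd1+/- and Foxd1+/+ the 5 were Col4a6 (0.16 ± 0.06, limma unadjusted p = 0.0469), Col13a1 (0.16 ± 0.09), Col26a1 (0.15 ± 0.09), Col9a1 (0.13 ± 0.08) and Col10a1 (0.12 ± 0.09), all higher in Foxd1+/- as labelled. Col4a6 read 49.5 and 53.4 for Foxd1+/+, 57.7 and 57.4 for Foxd1+/- and 52.7 and 53.9 for Foxd1-/-. Col9a1 read 79.7 and 70.3 for Foxd1+/+, 83.2 and 80.5 for Foxd1+/- and 78.0 and 78.6 for Foxd1-/- and Col10a1 32.5 and 32.5 for Foxd1+/+, 32.8 and 38.3 for Foxd1+/- and 32.5 and 32.2 for Foxd1-/-. For Col10a1, Foxd1+/- replicate 2 alone stood off, and the other 5 arrays differed by less than 1 unit.

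Genes that modify, secrete and cut collagen chains were read as lists. Of 22 genes for modification and folding in the endoplasmic reticulum, 17 were higher in Foxd1-/- than in the carrying arrays (median 0.11). Over all genes 49.6% were higher. Of the 22, 0 passed (0.0% of all genes). The 3 with the smallest p against Foxd1+/+ were Colgalt1, which adds galactose to hydroxylysine (0.14 ± 0.08), the lysyl hydroxylase Plod3 (0.12 ± 0.08) and the prolyl isomerase Ppib (0.12 ± 0.08). Colgalt1 read 744 and 847 for Foxd1+/+, 819.7 and 786 for Foxd1+/- and 876 and 875 for Foxd1-/-, with both Foxd1-/- arrays highest. That held for 4 of the 22 genes, Plod3 among them, and for 5.59% of all genes. Between replicate numbers 3 of the 22 passed, all higher in replicate 2, where 8.84% of all genes passed, 4.84% as higher. They were Creb3l1, a transcription factor of collagen secretion (0.49 ± 0.06), and the prolyl hydroxylase family members P3h2 (0.40 ± 0.06) and P3h3 (0.29 ± 0.05).

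Of 15 genes for processing and crosslinking outside the cell, 9 were higher in Foxd1-/- (median 0.02, 49.6% of all genes higher) and 0 passed. Pcolce, which speeds the removal of procollagen ends, read 3387 and 3862 for Foxd1+/+, 3324 and 3885 for Foxd1+/- and 3827 and 4592 for Foxd1-/- (against Foxd1+/+ 0.21 ± 0.14). Lum, the fibril-spacing proteoglycan lumican, read 660.0 and 918 for Foxd1+/+, 565 and 1112 for Foxd1+/- and 949 and 1482 for Foxd1-/- (0.61 ± 0.41), and Pcolce2, a relative of Pcolce, ran the other way (-0.43 ± 0.32). Between replicate numbers 6 passed (limma, Benjamini-Hochberg), where 8.84% of all genes did. Fmod, Lum, Dcn, Bmp1 and Pcolce were higher in replicate 2 and the lysyl oxidase Loxl4 was lower. Fmod and Loxl4, chosen after their values were seen, had the largest differences of the list, 2.07 ± 0.14 (limma adjusted p = 0.00636) and -1.36 ± 0.10 (adjusted p = 0.0076). Fmod, the proteoglycan fibromodulin, read 107 and 419 for Foxd1+/+, 105 and 366 for Foxd1+/- and 146 and 813 for Foxd1-/-. It was highest on Foxd1-/- replicate 2, as were Col1a1, Col3a1 and Col5a1.

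Of 9 collagen receptors, 8 were higher in Foxd1-/- (median 0.10, 49.6% of all genes higher) and 0 passed. Against Foxd1+/+ the integrin chains Itga10 and Itga11 differed by 0.17 ± 0.07 and 0.26 ± 0.19 and the uptake receptor Mrc2 by 0.28 ± 0.26. Mrc2 passed between replicate numbers (0.45 ± 0.06), as did the receptor kinase Ddr1 (0.46 ± 0.06) and 8.84% of all genes. Of 13 genes of collagen breakdown and its inhibitors, 7 were higher in Foxd1-/- (median 0.11, 49.6% of all genes higher) and 0 passed. The gelatinase Mmp2 read 1158 and 1773 for Foxd1+/+, 1157 and 1721 for Foxd1+/- and 1469.5 and 2409 for Foxd1-/-, and against Foxd1+/+ Mmp2 differed by 0.39 ± 0.36, the membrane collagenase Mmp14 by 0.15 ± 0.15 and Mmp16 by -0.25 ± 0.20. Between replicate numbers 9 of these 13 passed, against 8.84% of all genes (4.84% higher and 4.0% lower), and they did not share a direction. Mmp2, Mmp14, Timp2, Timp3, Ctsk and Fap were higher in replicate 2, while Mmp3 (-1.38 ± 0.12), Timp1 (-0.74 ± 0.09) and Mmp13 (-0.50 ± 0.09), named after their values were seen, were lower. Of the cartilage regulators, Sox9 (0.72 ± 0.10) and Sox6 (0.53 ± 0.07) passed as higher in replicate 2 and Sox5 (0.19 ± 0.06) did not.

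Markers of the labelled cell type were present on every array: the 8 fibroblast markers read at least 237, and Thy1 lay at 869.6 to 1009. In Foxd1-/- 6 of the 8 were higher (median 0.10, 49.6% of all genes higher), led by the growth factor receptors Pdgfra (0.72 ± 0.13) and Pdgfrb (0.45 ± 0.24), which did not pass. Pdgfrb passed between replicate numbers (0.55 ± 0.05). All 6 macrophage and leukocyte markers were lower in Foxd1-/- (median -0.19, 50.4% of all genes lower). Their summed intensity was 872 to 892 there and 1126 to 1314 on the carrying arrays. Most of it was Lyz2, which read 472 and 478 for Foxd1-/- and 677 to 833 on the carrying arrays. All 5 smooth muscle markers were lower in Foxd1-/- as well, with sums, mostly Acta2, of 3060 to 3331 against 3171 to 5151. The 2 highest sums were those of Foxd1+/+ replicate 2 and Foxd1+/- replicate 1. The 6 endothelial markers summed to 1072 to 1203, most of it Tek, which lay at 868 to 1007. The other 5 were dim. Of these Kdr read 51.0 and 47.6 for Foxd1+/+, 44.2 and 44.2 for Foxd1+/- and 38.9 and 39.1 for Foxd1-/- and Tie1 51.3 and 55.6 for Foxd1+/+, 49.5 and 54.0 for Foxd1+/- and 46.8 and 49.4 for Foxd1-/-, so both were lowest in Foxd1-/- within each number. That held for only these 2 of the 6 endothelial markers (14.2% of all genes). Against the carrying arrays 4 of the 6 were lower in Foxd1-/- and 2, Pecam1 and Tek, were higher, with a median of -0.02. Epithelial markers summed to 1381 to 1834. Their part in the collagen differences was not tested.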

How the data were processed

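Total RNA, 300 ng per sample per the labels' protocols, was copied into biotin-labelled target and read on 6 single-colour Affymetrix arrays. The authors deposited 28856 probe sets as linear intensity values. Their background correction, normalization and summary: not given in the sources used here. Of the probe sets, 21789 had 1 gene symbol in the platform annotation, 1621 several and 5446 none; only the first were used, with the highest-mean probe set per gene (19938 genes). The 44 collagen genes came from 46 probe sets, and all matched RefSeq (GRCm38.p6) by Entrez identifier. Promoter sequences are RefSeq's.

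Tests used log2(intensity + 1), a scale that shrinks the differences of dim genes, and limma 3.58.1 in R 4.3.3 (lmFit, eBayes) on all 6 arrays, adjusted by Benjamini-Hochberg over all genes, threshold 0.05; the script was tested on simulated data. Genotype fits held 1 mean per genotype, or Foxd1-/- against the other 4 arrays; a further fit added the replicate number. The replicate difference of a genotype correlated over genes with that of each other genotype (r = 0.55, 0.73 and 0.73), so the numbers were treated as pairing, on the data alone. Values per array are given for partner chains, for the 5 members with the smallest p in each of 5 comparisons and for the 3 widest and narrowest ranges, with up to 3 genes per pathway list. Members and lists were chosen with earlier results of these data known.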

Additional observations from a re-analysis of the deposited data

How the results depend on the processing

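The alternatives were a pseudocount of 16, only genes with a mean log2 value of at least 6, quantile normalization, the mean of all probe sets of a gene, a mean-variance trend, the replicate number as a block, and each array left out in turn. No alternative called a gene in a genotype comparison. With the replicate block the unadjusted counts moved as given beside each comparison. The median difference of the collagen genes between Foxd1-/- and the carrying arrays was 0.0355 with and without the block. That equality is no check, because each genotype has 1 array of each number and the block cannot change a genotype difference. Between replicate numbers the main fit called 12 collagen genes and 8.84% of all genes. The collagen genes called were 9 at a pseudocount of 16 (without Col15a1, Col5a2 and Col8a1, 7.76% of all genes) and 14 with the filter (16.9% of the genes kept). They were 11 with quantile normalization (without Col15a1, 8.85% of all genes), 13 with the mean of probe sets (8.89%) and 13 with the trend (10.5%). Leaving out each array in turn gave 0 to 9 collagen genes and 0 to 1387 genes in all. The FACIT median between replicate numbers moved to 0.2857 with the filter, which removes its dim genes. With 1 array left out, the fibrillar median of Foxd1-/- against the carrying arrays ranged from 0.0527 to 0.3369, the FACIT median of Foxd1-/- against Foxd1+/+ ranged from 0.0159 to 0.2333 and the transmembrane median of Foxd1-/- against Foxd1+/- from -0.0508 to 0.1872. Against the carrying arrays, Col5a2 ranged from -0.0131 to 0.3648 and Col6a2 from -0.0316 to 0.6996, and both turned without Foxd1-/- replicate 2, which leaves Foxd1-/- replicate 1 against carrying arrays of both numbers. Class medians near 0, those of the basement membrane, cartilage and hexagonal network genes in Foxd1-/- against the carrying arrays, turned sign with single arrays left out. Signal over background of dim collagen genes is unknown, which limits what their flat profiles show. The number of arrays limits precision throughout.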
